A study of Drosophila melanogaster with 3 samples.

Results

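The trithorax group and chromatin remodeler genes described here are 7 protein-coding genes of Drosophila melanogaster, brm, mor, osa, trx, ash1, kis and Iswi, out of 13945 protein-coding genes on the 6 main chromosome arms. They were chosen by name, and each was searched for binding of Aef1 over its span plus 5 kb on either side. Aef1, a zinc finger protein also known as adult enhancer factor 1, had been fused to enhanced green fluorescent protein (Aef1-eGFP) and was precipitated with an anti-GFP antibody from sonicated chromatin of whole transgenic embryos aged 0 to 24 h. The 3 biological replicates, which the labels number, form 1 group with no other genotype or treatment. The labels do not say which promoter drives the fusion, and an untagged or input library was not analysed here. The values come from lists of peaks that the authors deposited for every replicate and cut at an irreproducible discovery rate (IDR) of 0.01. The IDR measures how well the order of peaks repeats between a pair of peak calls. These lists held 3495, 3126 and 2942 peaks in replicates 1, 2 and 3. The number of reads behind them was not analysed here, so the depth is unknown.

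Trithorax group proteins keep developmental genes active against the silencing by Polycomb group proteins, and many of them modify or move nucleosomes. brm encodes the ATPase of the fly SWI/SNF complexes, mor a core scaffold subunit and osa the large subunit that marks the BAP form of the complex. trx and ash1 encode histone methyltransferases, acting on lysine 4 and lysine 36 of histone H3. kis encodes a chromodomain ATPase of the CHD family, and Iswi the ATPase shared by the NURF, ACF and CHRAC complexes. In embryos these products are in part loaded by the mother and in part made by the embryo. Whole embryos mix all cell types and many stages, so binding in few cells and weak binding in many cannot be told apart.

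Aef1-eGFP peaks lay in the window of 6 of the 7 genes in all 3 replicates, and the genes' windows held 15 separate regions. In the 7 windows together the lists held 13 ± 1 peaks per replicate (SD, n = 3). A region joins the peaks of different replicates that overlap by at least 1 bp, and positions are 1-based on dm6. Of the 15 regions, 11 were found in 3 replicates, 2 in 2 replicates and 2 in 1 replicate. Over the whole genome 48.5% of 4290 regions were found in 3 replicates. kis had 3 such regions, brm, osa and trx had 2 each, ash1 and Iswi had 1 each, and mor had none. Over all protein-coding genes, 30.7% had such a region in the same window. The number of peaks per window did not vary among replicates for 5 of the genes. It was 2 in each replicate for brm and trx, 3 for osa and kis and 1 for ash1. For osa, 1 of the 3 peaks lay in a different region in replicate 3 than in replicates 1 and 2. mor had 1, 1 and 0 peaks in replicates 1, 2 and 3, and Iswi had 1, 2 and 1.

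**Figure D1:**
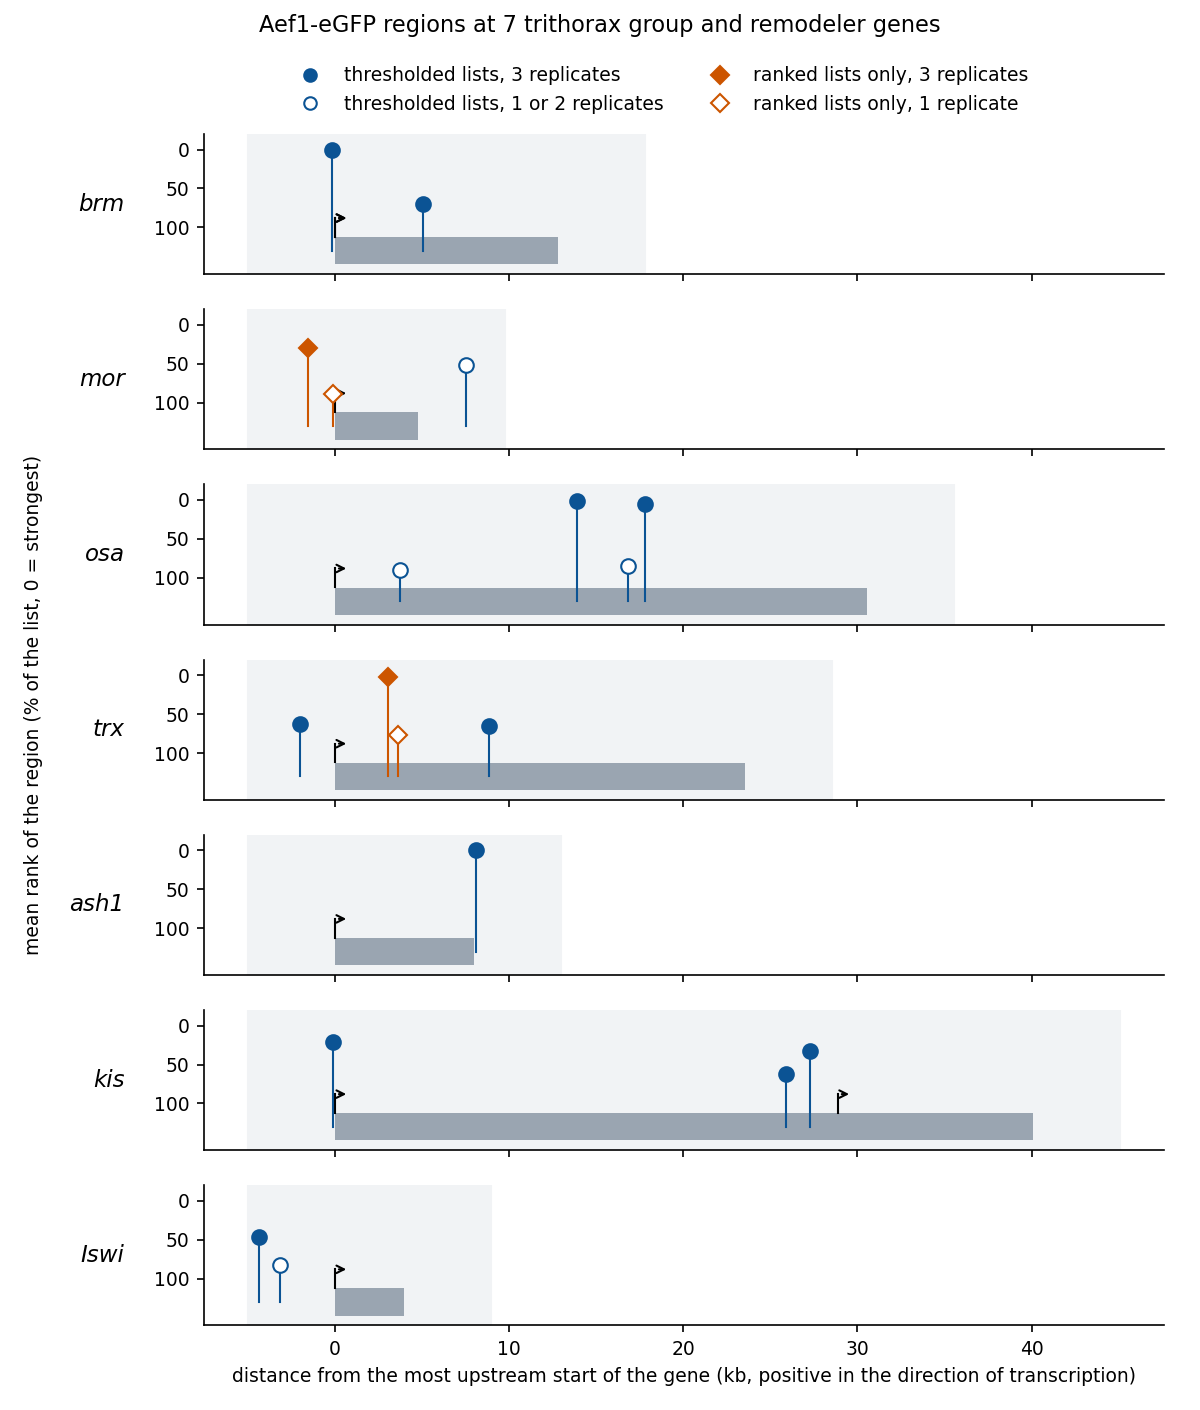
Position of each region at the 7 genes, as the distance in kb of its summit from the most upstream transcript start, with the gene span as a grey bar, starts as arrows and the searched window shaded. The height of a marker is its mean rank in percent of the list, with 0 at the strongest. Among the circles the ash1 region, the brm region at its start and 2 of the osa regions stand highest. The diamond in trx intron 1, at 2.36% of the ranked peaks past the threshold, stands between these 2 osa regions. Filled circles are regions in 3 replicates, open circles regions in 1 or 2 replicates, and diamonds peaks that passed the same IDR in the ranked lists alone.

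Strength is given as the rank of a peak by the authors' signal value within its own list, where rank 1 is the strongest peak. A rank percent is that rank divided by the number of peaks in the list. The scale of the signal is unknown, so signals of different replicates were not compared. The 11 regions found in 3 replicates fell into a strong set of 4 and a weaker set of 7, a split drawn after their ranks were seen. The strong set, beside ash1, upstream of brm and within osa, had mean rank percents from 0.0631 to 4.93. The other 7 regions lay between 21.3 and 70.5. Across all 2081 regions found in 3 replicates the median was 35.8, with quartiles at 17.7 and 54.4.

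**Figure D2:**
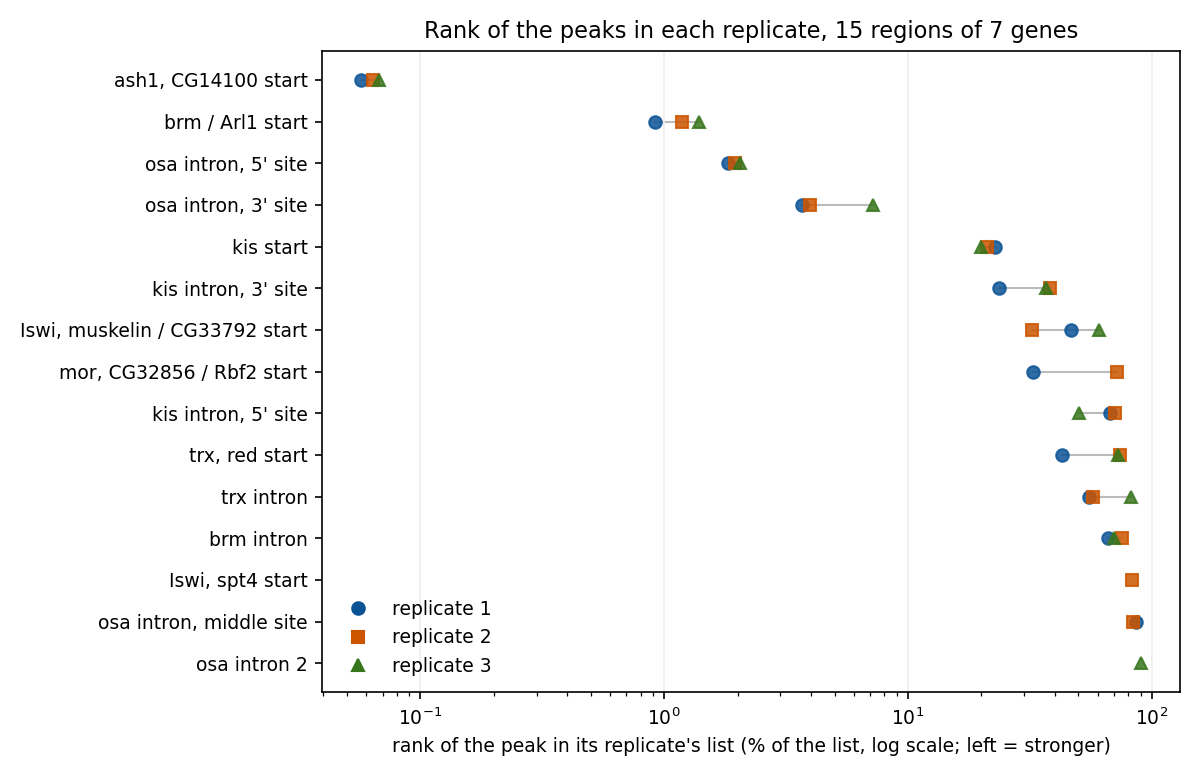
Rank of every peak at the 15 regions, in percent of its replicate's list on a log scale, with 1 marker per replicate and the strongest region at the top. Among the 4 strongest regions the weakest peak is at 7.17%, and the next peak, at kis in replicate 3, is at 19.99%.

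The strongest region was at the 3′ end of ash1 (FBgn0005386, chr3L:19590773-19598755, minus strand). It had rank 2 in each of the 3 lists, at 0.0572, 0.0640 and 0.0680 percent of the list, with signals of 1339, 1248 and 1016 in replicates 1, 2 and 3. The replicates did not differ in this rank, and their summits lay within 11 bp of each other. Its mean rank percent was 0.0631 ± 0.00544 (SD, n = 3), place 2 among the 2081 regions. As the rank was the same, this SD comes from the lengths of the lists alone. The peak also had rank 2 in each of the 4 lists deposited for the series as a whole, which cover the same replicates and are not separate evidence. The region covers chr3L:19590457-19590776, and its summit lies 152 bp beyond the 3′ end of ash1 and 8134 bp from the ash1 start. It lies 97 bp upstream of the start of CG14100, a neighbour transcribed in the same direction. The summit was thus nearer to the CG14100 start than to that of ash1. At the ash1 start itself the thresholded lists held no peak. The authors' longer ranked lists, which are not cut at this IDR, held 1 peak within 500 bp of it in replicates 1 and 3, with IDR values of 0.671 and 0.648, and none in replicate 2. The 101 bp around the strong summit, from the RefSeq genome on dm6, are shown because this is the highest region of the 7 genes, and they held none of the 8 words searched on both strands.
ash1 and CG14100, chr3L:19590571-19590671, plus strand: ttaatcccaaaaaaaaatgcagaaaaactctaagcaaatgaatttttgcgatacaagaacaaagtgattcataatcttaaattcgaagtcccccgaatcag

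Genes whose best ranks over the 3 replicates were most like those of ash1 were CG2680, CG2681, Lint-O, Ugalt and eIF2Bbeta. Their windows share 1 region, so they tie. Their best peak had rank 1 in each list, and the summed difference of rank percents from ash1 over the 3 replicates was 0.0946.

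Among the SWI/SNF subunit genes, brm (FBgn0000212, chr3L:15970082-15982869, minus strand) was bound at its own start. The region at chr3L:15982864-15983154 lay between brm and Arl1, which encodes an Arf-like GTPase and is transcribed in the opposite direction. Its summit was 140 bp upstream of the nearest brm start and 126 bp upstream of the Arl1 start, so it cannot be assigned to one of them. Its peaks had ranks 32, 37 and 41 and signals of 579.7, 455 and 410.01 in replicates 1, 2 and 3. These ranks were close together, with a mean rank percent of 1.16 ± 0.240 (SD, n = 3), place 34 among the 2081 regions, and summits within 9 bp. Of the 101 bp around the summit, 13.9% were G or C, the lowest share of the 11 regions, beside a mean of 34.3% ± 10.3 over all regions (SD, n = 2081 regions). In the sequence, capitals mark the AT-rich word TTAAAA, which 705 of the 2081 regions held (33.9%).
brm and Arl1, chr3L:15982959-15983059, plus strand: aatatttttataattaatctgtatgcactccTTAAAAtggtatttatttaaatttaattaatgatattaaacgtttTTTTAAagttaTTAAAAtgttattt

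A weaker brm region lay in intron 3 of 5, at chr3L:15977604-15977966, where the small gene CG17029 is nested. Its ranks were 2303, 2370 and 2055, with a mean rank percent of 70.5 ± 4.99 (SD, n = 3). The summit was 5041 bp downstream of the nearest brm start and 716 bp upstream of the start of CG17028, another nested gene. This was the weakest of the 11 regions, and all 3 replicates placed it in the lower part of the list.

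osa (FBgn0261885, chr3R:17687818-17718350, minus strand) carried 2 strong regions deep inside the gene and none at its start. Both strong regions lay in intron 4 of 15, which is 8067 bp long, with summits 3851 bp apart. The one nearer the start, at chr3R:17704284-17704552, had ranks 64, 61 and 60 and signals of 428, 380.3 and 347 in replicates 1, 2 and 3. The ranks hardly differed among replicates, with a mean rank percent of 1.94 ± 0.105 (SD, n = 3) and summits within 17 bp. It took place 59 among the 2081 regions and place 14 among the 650 of them that lie in introns. The other, at chr3R:17700444-17700719, had ranks 128, 124 and 211 and signals of 317, 274 and 194. Replicate 3 ranked it lower than the others, and its mean rank percent was 4.93 ± 1.94 (SD, n = 3), place 33 among the intronic regions. Their summits lay 13931 and 13497 bp from the nearest transcript start of any protein-coding gene, a distance that 55 and 57 of the 650 intronic regions reached or passed (8.46% and 8.77%). The summit windows of both are shown as the strongest intronic sites of these genes in the thresholded lists. Capitals mark GCCAT, the core of the motif of the Polycomb recruiter Pleiohomeotic, in the site nearer the start, and TTAAAA in the other. GCCAT was found in 280 of the 2081 regions (13.5%), and a match of these letters does not show a bound site.
osa, nearer the start, chr3R:17704369-17704469, plus strand: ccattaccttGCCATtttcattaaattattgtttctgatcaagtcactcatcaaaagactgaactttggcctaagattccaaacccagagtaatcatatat
osa, farther from the start, chr3R:17700518-17700618, plus strand: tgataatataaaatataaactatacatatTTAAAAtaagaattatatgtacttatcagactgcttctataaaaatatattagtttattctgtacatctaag

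The remaining osa peaks were weak. A region at chr3R:17701321-17701660, also in intron 4, had ranks 3000 and 2616 in replicates 1 and 2, and the overlapping peak in the ranked list of replicate 3 had an IDR of 0.0178. A region in intron 2 was found in replicate 3 alone, at rank 2652, and the overlapping ranked peaks of replicates 1 and 2 had IDR values of 0.617 and 0.677. At the osa start the strongest peaks of the ranked lists had IDR values of 0.625, 0.693 and 0.782 in replicates 1, 2 and 3, and none passed 0.01.

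mor (FBgn0002783, chr3R:15968134-15972913, minus strand) had no region in 3 replicates in the thresholded lists. Its window held 1 region, chr3R:15965204-15965519, with ranks of 1134 in replicate 1 and 2247 in replicate 2 and no overlapping peak in either list of replicate 3. That summit lay 2773 bp beyond the 3′ end of mor, within 500 bp of the starts of CG32856 and of Rbf2, a retinoblastoma family gene. Replicates 1 and 2 placed it far apart in their lists, and none of the 4 lists for the series as a whole contained it.

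trx (FBgn0003862, chr3R:14263358-14286903, minus strand), the founding gene of the group, had 2 weak regions in the thresholded lists. The region at chr3R:14277852-14278257, in intron 2 of 8, had ranks 1937, 1788 and 2416 in replicates 1, 2 and 3, a mean rank percent of 64.9 ± 14.9 (SD, n = 3). The region at chr3R:14288693-14289038 lay 1971 bp upstream of the trx start and 197 bp upstream of the divergent neighbour red. Its ranks were 1496, 2316 and 2135, a mean rank percent of 63.2 ± 17.6 (SD, n = 3), with replicate 1 the highest. For both regions the SD in rank percent was above that of the ash1, brm and osa regions. A rank percent near 0 leaves less room for spread, so these SDs do not compare how well strong and weak regions repeat. Within 500 bp of the trx start itself, the strongest peak of the ranked lists had an IDR of 0.0965 in replicate 1 and 0.686 in replicate 2, and replicate 3 had none.

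Both mor and trx had further peaks that passed the threshold in the authors' ranked lists and were not listed in the thresholded ones. The ranked lists held 3602, 3271 and 3083 peaks past the same IDR of 0.01, which is a score of 830 or above, in replicates 1, 2 and 3, and 107, 145 and 141 of these (2.97%, 4.43% and 4.57%) were not in the thresholded lists. Within intron 1 of trx, which is 6667 bp long, such a peak lay at chr3R:14283762-14284012, 3028 bp downstream of the start. It had ranks 72, 87 and 75 and signals of 415, 333 and 321 in the ranked lists, with an IDR of 1e-05, the lowest value the lists hold, in each replicate. Its ranks were close together, with summits within 8 bp, and its mean rank percent among the peaks past the threshold was 2.36 ± 0.336 (SD, n = 3). At mor, such a peak lay at chr3R:15974256-15974634, 1522 bp upstream of the mor start, inside an intron of Hel89B, which encodes an ATPase of the SWI2/SNF2 superfamily. Its ranks in the ranked lists were 777, 816 and 1340 and its mean rank percent was 29.9 ± 11.7 (SD, n = 3), with replicate 3 the lowest in strength. Ranked peaks left out in 1 replicate alone lay 97 bp upstream of the mor start, at an IDR of 0.00219 in replicate 3 (0.682 and 0.752 for the strongest peaks there in replicates 1 and 2), and 3648 bp downstream of the trx start in replicate 1. With the peaks of the ranked lists at this threshold, a count added after these data were seen, regions found in 3 replicates numbered 13 in place of 11, and 7 of 7 genes had one, beside 31.3% of all protein-coding genes in the same lists. The trx window is shown because it held the strongest of these peaks, with TTAAAA in capitals.
trx intron 1, chr3R:14283825-14283925, plus strand: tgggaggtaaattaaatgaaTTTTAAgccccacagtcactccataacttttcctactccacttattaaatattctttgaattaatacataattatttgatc

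kis (FBgn0266557, chr2L:210735-250823, minus strand), the longest of the genes at 40.1 kb, had 3 regions, 1 at its upstream start and 2 before its inner start, whose mean rank percents ran from 21.3 to 62.8. The region at the upstream start, chr2L:250749-251058, had ranks 796, 661 and 588 in replicates 1, 2 and 3. The replicates lay close together, at a mean rank percent of 21.3 ± 1.40 (SD, n = 3), with the summit 78 bp upstream of the start. In intron 11 of 16, which is 7230 bp long, 2 regions lay 1387 bp apart. The one at chr2L:223375-223739 was 1588 bp upstream of the inner start, with ranks 822, 1198 and 1079 and a mean rank percent of 32.8 ± 8.11 (SD, n = 3). The one at chr2L:224738-225122 was 2975 bp upstream of the inner start, with ranks 2348, 2212 and 1484 and a mean rank percent of 62.8 ± 10.8 (SD, n = 3). Replicate 3 ranked the one farther from the inner start higher than the others did, and the ranges of the 2 intronic regions did not overlap. The ranked lists of the 3 replicates held no peak within 500 bp of the inner start. The intronic site nearer the inner start is shown because it was the only one of the 11 summit windows with CAACAA, the word known for Aef1, and the start region is shown beside it. Capitals mark CAACAA as well as GCCAT and TTAAAA, each on either strand.
kis intron 11, chr2L:223500-223600, plus strand: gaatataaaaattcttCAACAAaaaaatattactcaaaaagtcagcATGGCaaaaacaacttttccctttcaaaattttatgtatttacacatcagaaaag
kis upstream start, chr2L:250851-250951, plus strand: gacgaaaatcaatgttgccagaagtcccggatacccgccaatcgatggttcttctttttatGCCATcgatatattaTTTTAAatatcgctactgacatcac

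The words at the 11 summits were few. CAACAA occurred in 1 of the 11 windows of 50 bp either side of a summit, against 17.7% of the 2081 regions found in 3 replicates, and its tandem CAACAACAA in none of 11, against 5.05%. GCCAT was in 3 of the 11, 2 of them at kis and 1 at osa, against 13.5% of all regions. TTAAAA was in 4 of 11, against 33.9%. The words TATCGATA (the DRE of core promoters), GAGAG (GAGA factor), CAGGTAG (Zelda) and AGGTGGCG (the core of CTCF) were in none of the 11, against 1.54%, 9.61%, 0.336% and 0.913% of all regions. With 11 regions these counts are descriptions and were not tested. The CAACAA count moved with the window and with the replicates used, from 0 regions within 25 bp to 3 within 100 bp. The GC share of the 11 windows ran from 13.9% to 50.5% with a median of 31.7%, and the median over all regions was also 31.7%.

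Iswi (FBgn0011604) lies on the plus strand of arm 2R at 12636671 to 12640628 and had no thresholded peak in its body or within 500 bp of its start. The region found in 3 replicates, at 12632158 to 12632515, was 4353 bp upstream, at the divergent starts of muskelin and CG33792. Its peaks had ranks 1628, 1011 and 1793 in replicates 1, 2 and 3, a mean rank percent of 46.6 ± 14.3 (SD, n = 3), with replicate 2 the strongest. A further region, in replicate 2 alone at rank 2591, lay at the start of spt4, a transcription elongation factor gene. The overlapping ranked peaks had IDR values of 0.0101 in replicate 1 and 0.176 in replicate 3, so replicate 1 missed the threshold narrowly. At the Iswi start the strongest peaks of the ranked lists had IDR values of 0.465 and 0.539 in replicates 1 and 3, and replicate 2 had none. With the window cut to 2 kb either side, Iswi had no region in 3 replicates.

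By place, 5 of the 11 regions were within 500 bp of a transcript start and 6 were in introns, where all regions stood at 54.9% at starts and 31.2% in introns. The 11 were drawn from windows around genes alone and all regions were not, so these shares come from unlike sets. Regions at a start of the gene itself numbered 2, upstream of brm and of kis, and the other 3 were at starts of red, CG14100 and the muskelin pair alone. So 2 of the 7 genes had a region at their own start, against 11.3% of all protein-coding genes. None of the 6 summits away from starts was in coding sequence or a UTR. Summits at starts were not sorted further, and the one at the muskelin pair lay inside muskelin.

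The count of 6 of 7 genes with a region in 3 replicates stands beside 30.7% of all protein-coding genes, and over all genes that share is higher in longer genes. Among the genes spanning over 20 kb, osa, trx and kis had 3 of 3, against 46.2% of 1013 genes of that length, and all 3 carried 2 or more regions, as did 19.4% of those genes. Among the genes of 5 to 20 kb, brm and ash1 had 2 of 2, against 39.1% of 2471 genes. Among the genes under 5 kb, Iswi had a region and mor did not, against 27.2% of 10461 genes. These are shares of genes, and no test was made of 7 genes chosen by name. The windows with 5 kb on either side can reach into neighbouring genes. When each region was given to the gene with the nearest start instead, 3 of the 7 genes, osa, trx and kis, kept one, against 11.9% of all genes.

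Other genes of the same machinery were bound in 22 of 49 cases (44.9%) by the same rule, beside 30.7% of all genes, and 11 of the 49 had a region at a start of their own (22.4%), beside 11.3%. By length, 10 of 24 genes under 5 kb, 5 of 17 genes of 5 to 20 kb and 7 of 8 genes over 20 kb were bound. With the gene span alone as the window the count was 13 of 49, beside 11.5% of all genes. Among partners of brm, mor and osa in the SWI/SNF complexes 5 of 8 genes had a region (62.5%), beside 30.7% of all genes. All of these regions were weak. Their best regions were at mean rank percents of 55.2 ± 19.6 for e(y)3, 56.6 ± 6.38 for Bap170 and 59.0 ± 11.2 for Bap60 (SD, n = 3 each). The Bap170 region lay 3298 bp upstream of the Bap170 start, at the start of Vha16-1. Snr1, polybromo and Bap111 had none. Among ISWI partners 2 of 7 had a region (28.6%), beside 30.7% of all genes. The region in the window of Caf1-55, a histone-binding WD repeat protein, had ranks 15, 22 and 22, a mean rank percent of 0.627 ± 0.173 (SD, n = 3), and lay 3954 bp downstream of the Caf1-55 start, at the starts of Art3 and mRpS10. tou had 6 regions, the best at 18.5 ± 4.27 (SD, n = 3), while E(bx), Acf, Nurf-38, Chrac-14 and Chrac-16 had none.

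Among the other chromatin ATPases and their partners, Mi-2 and Chd1 were bound and Chd3 and MEP-1 were not. These are 2 of 4 (50%), beside 30.7% of all genes. The best region of Mi-2, 6943 bp inside the gene, was at a mean rank percent of 9.64 ± 1.22, and that of Chd1, 287 bp upstream of its start and shared with Bem46, was at 18.9 ± 6.30 (SD, n = 3 each). Of the INO80, SWR1 and related genes 4 of 11 were bound (36.4%), beside 30.7% of all genes. Ino80 was at 9.72 ± 2.57 in a region 91 bp upstream of its start and shared with Aptx. MRG15 was at 11.0 ± 3.71 and Arp5 at 17.5 ± 4.33 (SD, n = 3 each). The MRG15 region lay 2765 bp downstream of the MRG15 start, outside that gene. It was at the starts of CG4338 and of Cp190, an insulator protein gene. The Arp5 region lay 3223 bp downstream of the Arp5 start, at the starts of CG12321 and MED17. Of the COMPASS family, which methylates lysine 4 of histone H3, 3 of 11 were bound (27.3%), beside 30.7% of all genes. These were Dpy-30L1 at 11.9 ± 1.59, wds at 12.1 ± 1.96 and Rbbp5 at 20.4 ± 2.10 (SD, n = 3 each), all genes of shared core subunits, while ash2, another of that kind, had none. The Dpy-30L1 region lay 4666 bp downstream of its start, at the starts of CG12299 and Vha16-5. The wds region lay 3663 bp downstream of the wds start, outside that gene, which spans 2.24 kb. The catalytic subunit genes Set1 and trr had none, where trx, the third of that kind, had 2 weak ones, including the region at the start of red. Set1 and trr span 7.59 and 8.64 kb and trx 23.5 kb, and over all genes the share bound is higher in longer genes. Of 8 further trithorax group genes 6 were bound (75%), beside 30.7% of all genes, and 2 of them strongly. Of these 8, tara, fs(1)h, tna, skd and vtd span over 20 kb, a length at which 46.2% of all genes were bound. tara had ranks 22, 13 and 19 in replicates 1, 2 and 3 at 0.564 ± 0.128, and Trl, which encodes GAGA factor, had ranks 42, 29 and 26 at 1.00 ± 0.172 (SD, n = 3 each). The third was fs(1)h, a bromodomain gene, at 27.6 ± 6.36 (SD, n = 3), and Kdm5 and vtd had none.

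**Figure D3:**
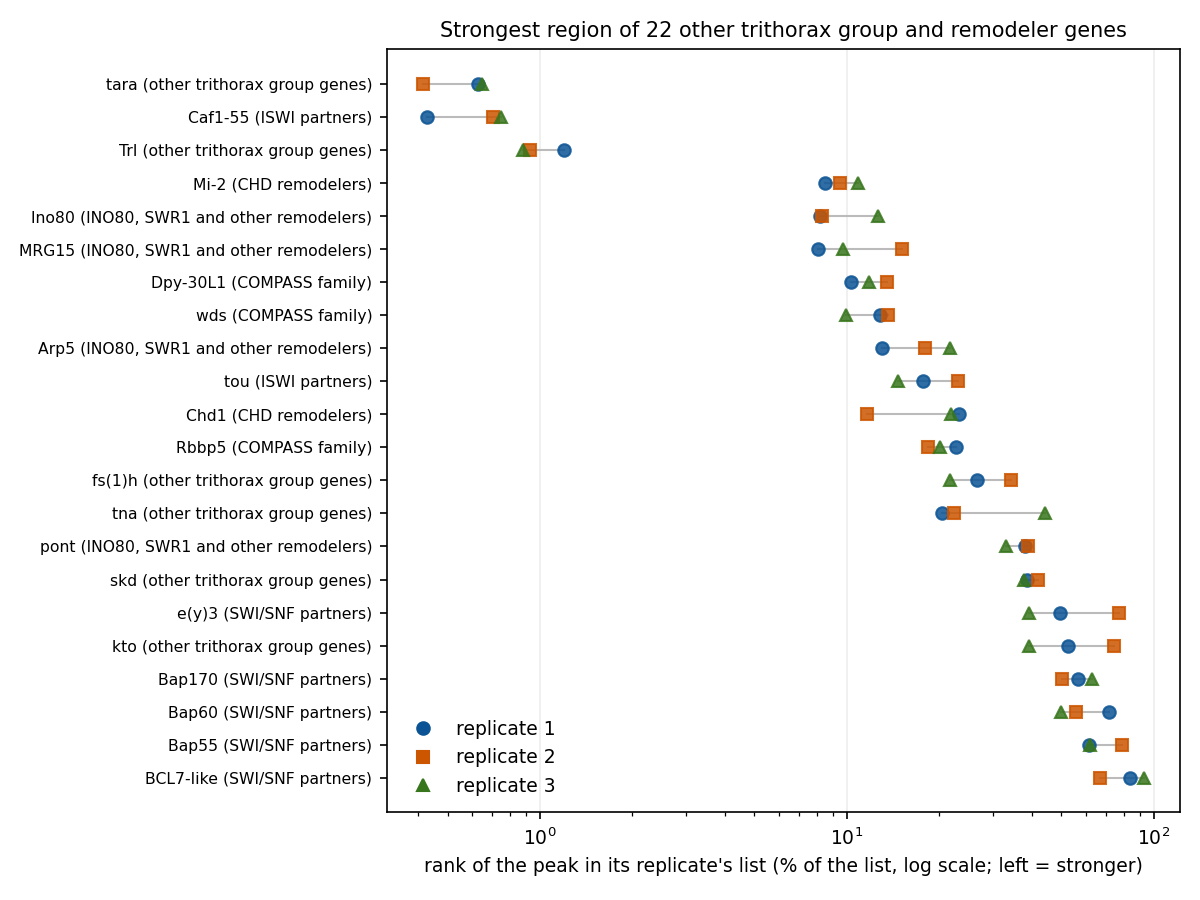
Rank of the strongest region of each of the 22 other trithorax group and remodeler genes with a region in 3 replicates, in percent of the list on a log scale, with 1 marker per replicate. tara, Caf1-55 and Trl stand apart, their weakest peak being at 1.20%, and the strongest peak of the 5 SWI/SNF partners is at 39.2%.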

How the data were processed

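Chromatin immunoprecipitation with an anti-GFP antibody was sequenced, per the labels, in 3 biological replicates of Aef1-eGFP embryos, with sheared chromatin of 200 to 800 bp. The deposited thresholded lists give each peak a signal value and a score. The score runs from 830 to 1000 and was checked against the rate itself: it is −log2 of the IDR times 125, with 1000 as its ceiling, to within 1 unit. The deposited ranked lists give that rate as −log10 of the IDR per peak. Per the file headers the build is dm6, and each thresholded list was made with 1 input more than the ranked list, whose role is not stated. No aligner or peak caller was named in the sources used here.

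From these files, overlapping peaks (1 bp or more) on the 6 main arms were merged into regions, whose summit is the median of the strongest peak's summit in each replicate. Genes and starts came from Ensembl release 115 on BDGP6.54, and sequence from RefSeq's assembly of the same release 6. A gene counted as bound where its span plus 5 kb overlapped a region found in 3 replicates. Summits within 500 bp of a start were placed at promoters, and words were sought in 101 bp. All 49 further genes were matched, Kdm5 through its older name lid. Named were the 7 genes with their regions, up to 3 bound genes per group with the best mean rank, and genes with ranks most like those of ash1 (5, from ties). Genes of the wider list named as having no region were picked after their values were seen. The members and lists were chosen with earlier results of these data known, and no test was run on them. Merging and assignment were checked on simulated peaks, where 200 of 200 planted genes were recovered with 0 false calls. The exact Clopper-Pearson 95% intervals of shares reflect counting alone. Alternatives changed the window, the IDR, the overlap, the replicates, the promoter and word windows and the lists used. Tools were Python 3.11.15, numpy 2.4.6, SciPy 1.17.1 and matplotlib 3.10.9.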

Additional observations from a re-analysis of the deposited data

Results flagged for a closer look

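A pair of loci stood out because a signal appeared in the ranked lists, which the main counts do not use, in all 3 replicates. The region in intron 1 of trx had a mean rank percent of 2.36 among the peaks past the threshold, and the region upstream of mor had one of 29.9. Over the 6 main arms, 149 regions were past the threshold in the ranked lists and not in the thresholded ones, of which 67 recurred in all 3 replicates. Arm 3R held 42 of these 67 and arm 2L 18. None of the peaks left out overlapped a thresholded peak of its own replicate. The reason for their absence was not tested.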

How the results depend on the processing

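The number of genes with a region in 3 replicates was 6 of 7 and ran from 5 to 7 under the other windows, lists and replicates tried, while the share of all genes ran from 11.5% (gene span alone, 5 genes) to 49.4% (a list for the series as a whole, 6 genes). IDR thresholds of 0.05 and 0.001 gave 7 genes each, but they also changed to the ranked lists, which gave 7 at the unchanged 0.01. It was 3 when regions went to the gene with the nearest start, beside 11.9% of all genes. Leaving out 1 replicate gave 6 to 7 genes and 11 to 13 regions, and mor gained a region without replicate 3. The gene span alone gave 13 of the 49 further genes, beside 11.5% of all genes, and the window with 5 kb gave 22, beside 30.7%. The CAACAA count, 1 of 11, was 2 of 14 in the ranked lists at an IDR of 0.05, 0 within 25 bp, 3 within 100 bp, and from 0 to 2 with a replicate left out, and was 0 without replicate 2. With a 50% reciprocal overlap 9 regions recurred in 3 replicates. No paired analysis was possible because the study has 1 group. The cause of these shifts was not tested. Depth is unknown, so an absent peak does not show absent binding.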

Other observations

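Among the 22 bound genes of the wider list, the strongest region lay within 500 bp of the gene's own start in 6 (Chd1, Rbbp5, Ino80, Bap60, BCL7-like and kto), with a median best mean rank percent of 37.9. Except at kto, each of these regions was also within 500 bp of a start of another gene (Bem46, eRF1, Aptx, CG12096 and Zdhhc8, in that order). Such shared regions cannot be assigned to one gene. In 7 genes the strongest region lay at a start of another gene alone, with a median of 17.5, and in 9 it lay at no start, with a median of 18.5. In the 3 genes with the strongest regions, tara, Caf1-55 and Trl, that region lay away from the gene's own starts, though Trl had a weaker region at one. The tara region was 3161 bp upstream of its nearest start, and the Trl region was 1539 bp downstream of one.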
